A study of Mus musculus with 4 samples.

Results

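The secreted Wnt inhibitors examined here are 9 genes of the mouse: Sfrp1, Sfrp2, Sfrp4, Frzb, Wif1, Dkk1, Dkk2, Dkk3 and Notum. They were taken by gene symbol from a count table of 51826 genes, and each symbol matched 1 gene. Because the list was drawn up with results of these libraries in view, every value below is a description and carries no p. RNA was sequenced from cultured dermal papilla cells (DPCs), mesenchymal cells at the base of the hair follicle, and dermal sheath cells (DSCs), which line its outside. Both came from whisker follicles of EGFP-carrying C57BL/6J mice aged 5 to 6 weeks, and the labels give their genotype as WT. All cells were grown in DMEM with serum. Passage 3 is termed early and passage 9 late (low and high in the labels), and each of the 4 groups was 1 library, so no difference below has a replicate check. The number of mice or cultures behind a library was not given in the sources used here. Any difference in when the libraries were made cannot be told apart from passage.

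Wnt proteins are secreted signals that bind a Frizzled receptor together with Lrp5 or Lrp6 and stabilise beta-catenin, which then acts on target genes with Tcf and Lef factors. Secreted inhibitors work outside the cell. The secreted frizzled-related proteins (Sfrp1, Sfrp2, Sfrp4 and Frzb) carry a domain like that of Frizzled and bind Wnts, and Wif1 also binds Wnts. Dkk1 and Dkk2 bind Lrp5 and Lrp6, Dkk3 is a divergent relative whose action on Wnt is less clear, and Notum is an enzyme that removes the lipid Wnts need to bind their receptor. In the hair follicle, Wnt signalling in the papilla and the overlying epithelium is needed for hair growth.

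The libraries held between 34981284 and 47604059 counts. Levels are given as CPM (counts scaled to a common library size by the TMM method), and a count of 0 allows up to 3 counts, or at most 0.0836 CPM in any library. A fold is called where it reached 4-fold, the threshold of the study, among 16734 genes with a mean of at least 10 counts. The 95% intervals cover counting error between 2 libraries only. A fold given as at least a value takes a 0 as 3 counts and leaves out counting error in the other library. The labelled cell types were checked against marker lists. At passage 3, 3 of 11 tested papilla markers (Crabp1, Sox2 and Lef1) were called higher in DPCs and 0 lower. Of all tested genes 1.52% were called higher and 2.77% lower. The median log2 difference of the papilla list was -0.31, so most of its tested markers lay lower in DPCs. None of 6 tested sheath markers was called higher in DSCs at that passage, and Acta2, the smooth muscle actin used as a sheath marker, had 262118 counts in DPCs and 217199 in DSCs. Itga8, also on the sheath list, was called higher in DPCs, with 6837 against 1674 counts. At passage 9, only Sox2 of the papilla list was called higher in DPCs, while Lef1, Bmp4 and Ncam1 were called lower. The sheath markers Mylk and Myh11, with 1680 and 168 counts in DPCs and 20094 and 3160 in DSCs, were then called higher in DSCs. The summed level of the sheath list went from 9761 to 3538 CPM in DPCs and from 7731 to 6955 in DSCs with passage. Its members did not move alike. In DPCs 1 was called higher with passage (Itga8) and 2 lower (Mylk and Myh11), with a list median of -1.81. In DSCs 1 was called higher (Itga8) and 0 lower, with a median of 0.89.

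Of the 9 inhibitors, 7 passed the minimum count. Wif1 and Dkk1 had 0 counts in every library. In DPCs, 4 of the 9 (7 of them tested) were at least 4-fold higher at passage 9 (Sfrp1, Sfrp2, Dkk3 and Notum) and 0 lower. Of all tested genes 5.58% were called higher and 4.36% lower, 9.94% in either direction. In DSCs, 2 of the 9 (7 of them tested) were called higher (Sfrp1 and Dkk2) and 0 lower. Of all tested genes 2.67% were called higher and 1.16% lower, 3.82% in either direction. Only Sfrp1 was called in both cell types, where 1.27% of all tested genes were called higher in both. Sfrp2 and Notum passed the minimum count chiefly through late DPCs, the library in which they were highest, so these counts are not read as support for a change of the group.

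**Figure D1:**
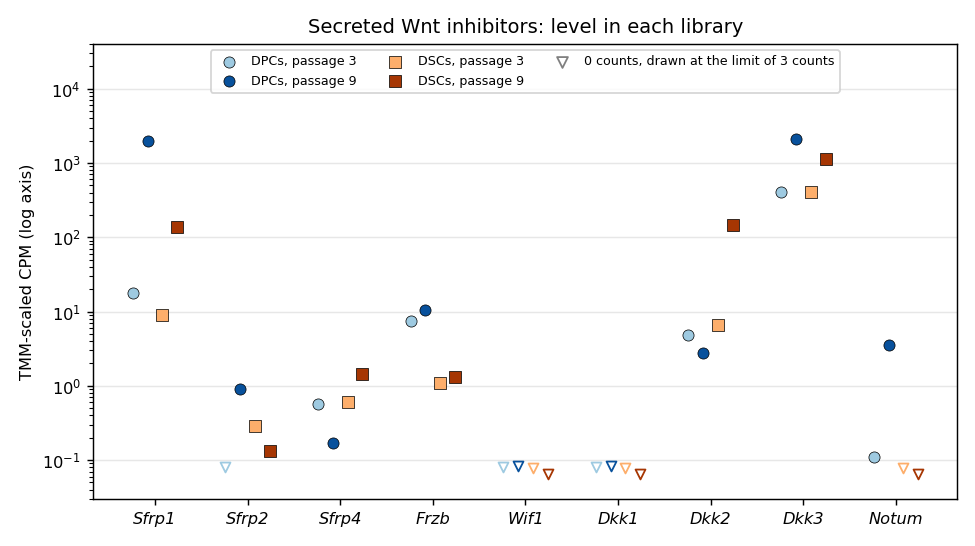
Level of each secreted Wnt inhibitor in the 4 libraries, as TMM-scaled CPM on a log axis, with 1 point per library. Sfrp1 and Dkk3 were highest in late DPCs (1947 and 2085 CPM), Dkk2 was high only in late DSCs at 147, and Wif1 and Dkk1 had 0 counts in all 4 libraries (open triangles, drawn at the limit of 3 counts).

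Sfrp1 (ENSMUSG00000031548; GRCm38, chromosome 8, 23411502 to 23449632, plus strand) is a protein-coding gene that overlaps no other annotated gene. It had 661 counts in early DPCs and 69887 in late DPCs, or 18.0 and 1947 CPM. In DSCs it had 339 and 6342 counts, or 8.94 and 139 CPM. The level at passage 9 lay above that at passage 3 in both cell types, and DPCs lay above DSCs at both passages. The rise was 108-fold in DPCs, a log2 fold change of 6.76 (95% interval 6.65 to 6.87), and 15.6-fold in DSCs, 3.95 (3.80 to 4.12). These rises ranked 16th and 85th from the top of the 16734 tested genes. The study had already picked Sfrp1 from these libraries, so its rank is not independent evidence. DPCs exceeded DSCs by 1.00 (0.82 to 1.20) on the log2 scale at passage 3 and by 3.81 (3.77 to 3.84) at passage 9. In late DPCs, Sfrp1 alone took 0.200% of all counts.

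The other frizzled-related genes were low. Sfrp2 (ENSMUSG00000027996; chromosome 3, 83766321 to 83774316, plus strand) had 0 counts in early DPCs, 32 in late DPCs, 11 in early DSCs and 6 in late DSCs. It stayed under 1 CPM in every library, with a highest value of 0.892 CPM. With the 0 set to 3 counts, it was 10.9-fold higher in late than in early DPCs, or 5.47-fold if both mates of each read pair were counted. The counting interval began at 3.07 on the log2 scale, and at 1.98, under 4-fold, with halved counts. In DSCs the log2 change was -0.90 and its interval included 0 (-2.86 to 0.42). At passage 3, with the 0 set to 3 counts, Sfrp2 was 3.56-fold lower in DPCs than in DSCs, under 4-fold although the fitted value of -2.74 was called. The counting interval reached up to -1.28 on the log2 scale, and to -0.19 with halved counts. At passage 9 it was 6.77-fold higher in DPCs as a ratio of CPM (interval 1.48 to 4.31 on the log2 scale), with a fitted log2 value of 2.37. That call held under 6 of 9 alternatives and was lost with a prior count of 10 and with FPKM. An antisense gene, Gm26771, overlaps its exons and had 6 counts in early DPCs and 0 elsewhere; use of strand in counting is not given in the sources used here.

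Sfrp4 (ENSMUSG00000021319; chromosome 13, 19623104 to 19632994, plus strand) had 21 and 6 counts in early and late DPCs, and 23 and 66 in DSCs. The early libraries were alike, at 0.571 and 0.607 CPM. The log2 changes with passage were -1.51 (-3.37 to -0.41) in DPCs and 1.19 (0.55 to 2.01) in DSCs, neither of which reached 4-fold. At passage 9, Sfrp4 was 8.66-fold lower in DPCs than in DSCs as a ratio of CPM, with an interval of -4.61 to -1.92 on the log2 scale. The fitted log2 value, which a prior count draws towards 0 at low counts, was -2.78. With counts halved, as counting of both mates would require, the interval in DPCs included 0 (-4.20 to 0.26).

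Frzb (ENSMUSG00000027004; chromosome 2, 80411970 to 80447625, minus strand), also called Sfrp3, was called between the cell types and not between the passages. It had 275 and 379 counts in early and late DPCs, against 41 and 60 in DSCs. Both DPC libraries lay above both DSC libraries. DPCs exceeded DSCs 6.91-fold at passage 3 (log2 2.73, interval 2.31 to 3.30) and 8.02-fold at passage 9 (2.96, 2.61 to 3.42). The log2 changes with passage were 0.50 (0.27 to 0.73) in DPCs and 0.27 (-0.31 to 0.89) in DSCs. Frzb was the only inhibitor called in the same direction between the cell types at both passages.

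Among the Dickkopf genes, Dkk2 (ENSMUSG00000028031; chromosome 3, 132085292 to 132180304, plus strand) differed most between the cell types. It had 178 and 99 counts in early and late DPCs, or 4.84 and 2.76 CPM. In DSCs it had 248 and 6695 counts, or 6.54 and 147 CPM. Late DSCs stood apart, and the other 3 libraries lay between 2.76 and 6.54 CPM. In DSCs it rose 22.5-fold, a log2 change of 4.48 (4.31 to 4.68) that ranked 58th among tested genes. In DPCs the log2 change was -0.80 (-1.18 to -0.45). At passage 9, Dkk2 was 53.3-fold lower in DPCs than in DSCs, while at passage 3 the difference was 1.35-fold.

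The bases upstream of Dkk2 and Sfrp2 are shown because these inhibitors moved in different cell types, Dkk2 in DSCs and Sfrp2 in DPCs, and because their RefSeq starts coincide with the gene starts in the deposited tables. Each line holds the 250 bases before the start, 5′ to 3′ on the gene's strand, from RefSeq on GRCm38.p6, at chr3:132085042-132085291 for Dkk2 and chr3:83766071-83766320 for Sfrp2. Capitals mark matches, on either strand, to any of 4 motifs: the TATA box (TATAAA), the GC box bound by Sp factors (GGGCGG), the CCAAT box (CCAAT, or ATTGG when read from the other strand) and the core bound by Tcf and Lef factors (CTTTGA).
Dkk2: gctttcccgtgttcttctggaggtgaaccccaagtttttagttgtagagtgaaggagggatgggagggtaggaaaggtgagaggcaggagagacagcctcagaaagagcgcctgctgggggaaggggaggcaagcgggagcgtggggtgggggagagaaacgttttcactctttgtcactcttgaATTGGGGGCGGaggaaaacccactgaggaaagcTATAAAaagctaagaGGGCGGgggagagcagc
Sfrp2: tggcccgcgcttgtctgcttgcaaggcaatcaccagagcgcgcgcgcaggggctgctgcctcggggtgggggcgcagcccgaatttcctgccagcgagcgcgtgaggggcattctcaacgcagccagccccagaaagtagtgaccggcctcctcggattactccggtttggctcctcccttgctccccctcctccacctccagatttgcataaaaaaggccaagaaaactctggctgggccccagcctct
In the Dkk2 window TATAAA begins 32 bases before the start, GGGCGG matches begin 60 and 17 bases before it, and a match to CCAAT directly precedes the first of these. Such matches occur in 12.4%, 32.7% and 33.8% of 32851 windows of the same length, and CTTTGA in 13.8%. Neither window holds CTTTGA, and the Sfrp2 window holds none of the 4 motifs. The Sfrp2 window has 16 CG dinucleotides and the Dkk2 window 7, against a median of 6. The table also held windows for Frzb, Wif1 and Dkk1, which reach 229, 44 and 169 bases into the annotated genes and are not printed. Of these, the Dkk1 window has 2 matches to CTTTGA, the Frzb window 1 and the Wif1 window 0. Sfrp1, Sfrp4, Dkk3 and Notum had no entry.

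Dkk3 (ENSMUSG00000030772; chromosome 7, 112116017 to 112159057, minus strand) was the most abundant inhibitor in every library. It had 14871 and 74814 counts in early and late DPCs, and 15438 and 51948 in DSCs. The early libraries were nearly equal, at 404 CPM in DPCs and 407 CPM in DSCs, and the interval of their log2 difference included 0 (-0.04 to 0.02). Dkk3 rose 5.16-fold in DPCs, a log2 change of 2.37 (2.34 to 2.39). In DSCs it was 2.80-fold higher at passage 9, a log2 change of 1.49 (1.46 to 1.51) that did not reach the threshold. At passage 9 DPCs exceeded DSCs 1.83-fold.

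Dkk1 (ENSMUSG00000024868; chromosome 19, 30545863 to 30549665, minus strand) and Wif1 (ENSMUSG00000020218; chromosome 10, 121033960 to 121100650, plus strand) had 0 counts throughout. The limit of 3 counts put their levels under 0.0815 and 0.0836 CPM in early and late DPCs, and under 0.0791 and 0.0658 CPM in DSCs. If both mates were counted, these limits double. A difference between groups was not detectable at this depth for either gene.

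Notum (ENSMUSG00000042988; chromosome 11, 120653788 to 120661175, minus strand) had 4 counts in early DPCs, 127 in late DPCs and 0 in both DSC libraries. Its highest level was 3.54 CPM. In DPCs it rose 32.6-fold, with an interval on the log2 scale of 3.63 to 6.92. At passage 9, with the 0 in DSCs set to the count limit, it was 53.8-fold higher in DPCs, or 26.9-fold if both mates were counted. These folds leave out counting error in late DPCs. The counting interval began at 5.43 on the log2 scale, and at 4.42 with halved counts. No change can be given within DSCs. The antisense gene Notumos shares exonic bases with Notum and had 6 and 44 counts in DPCs and 0 and 4 in DSCs. In all, 29.5% of the 50-base windows of Notum transcripts were shared with 2 other genes, and counts in these stretches could belong to any of them.

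**Figure D2:**
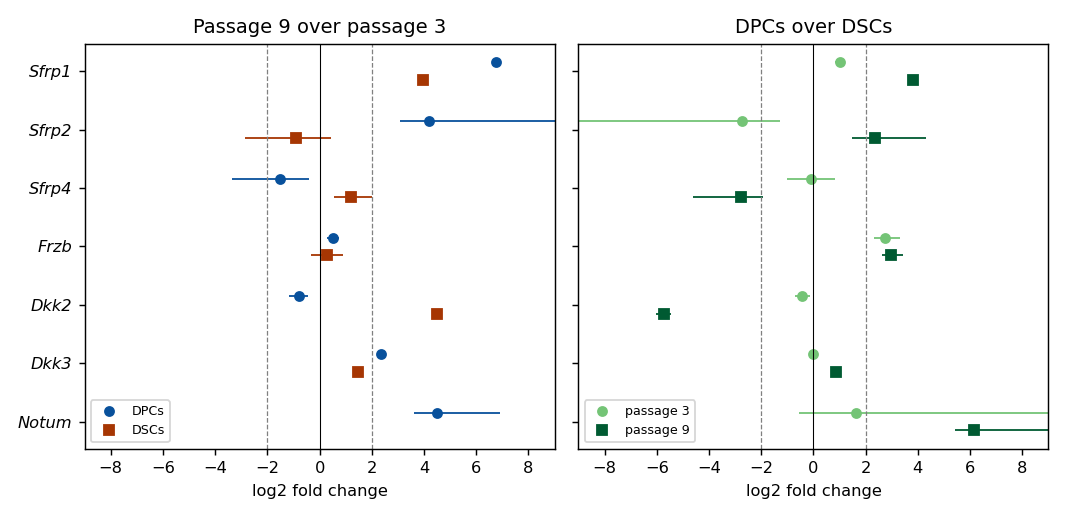
Log2 fold changes of the 7 tested inhibitors (points) with 95% counting intervals (bars) between passages in each cell type (left) and between cell types at each passage (right); dashed lines mark 4-fold. Bars that run off the axis belong to comparisons with a library at 0 counts, whose points depend on the prior count, and Notum in DSCs has no point. Dkk2 lies to the left of 0 in DPCs (-0.80) and far to the right in DSCs (4.48).

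Between the cell types, 7 of the 9 inhibitors were tested. At passage 3, 1 of them (Frzb) was called higher in DPCs, where 1.52% of tested genes were. Another (Sfrp2) was called lower, where 2.77% were, or 4.3% in either direction. At passage 9, 4 were called higher in DPCs (Sfrp1, Sfrp2, Frzb and Notum), where 2.5% of tested genes were. A further 2 were called lower in DPCs (Dkk2 and Sfrp4), where 3.91% were, or 6.42% in either direction. The contrasts share libraries, so the counts at passage 9 are not separate from those with passage.

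Deposited FPKM values, which are per transcript length, allow levels of different genes to be compared. In early DPCs the order by FPKM was Dkk3 (111), Sfrp1 (3.77), Frzb (2.17), Dkk2 (1.20), Sfrp4 (0.245) and Notum (0.0368). In early DSCs it was Dkk3 (105), Sfrp1 (1.77), Dkk2 (1.53), Frzb (0.327), Sfrp4 (0.157) and Sfrp2 (0.121). With 1 library per group there is no spread by which to separate neighbours in these orders. At passage 9 the order began with Dkk3 (568), Sfrp1 (407) and Frzb (3.06) in DPCs, and with Dkk3 (289), Dkk2 (33.7) and Sfrp1 (27.0) in DSCs. Dkk3 made up 93.7% of the summed FPKM of the 9 genes in early DPCs and 96.4% in early DSCs. At passage 9 its share was 57.9% in DPCs, where Sfrp1 held 41.5%. In late DSCs Dkk3 held 82.4%, Dkk2 9.61% and Sfrp1 7.71%. The summed FPKM was 118 and 981 in early and late DPCs, and 109 and 350.2 in DSCs, ratios of 8.30 and 3.21. Without Dkk3 these ratios were 55.5 and 15.8. Of the sum without Dkk3, Sfrp1 made up 407 of 413 in late DPCs, and Dkk2 (33.7) and Sfrp1 (27.0) made up most of 61.7 in late DSCs. Among all genes of a library by FPKM, Sfrp1 ranked 9525th in early DPCs and 100th in late DPCs, against 11273rd and 2389th in DSCs. Dkk3 ranked 523rd in both early libraries, 62nd in late DPCs and 193rd in late DSCs.

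**Figure D3:**
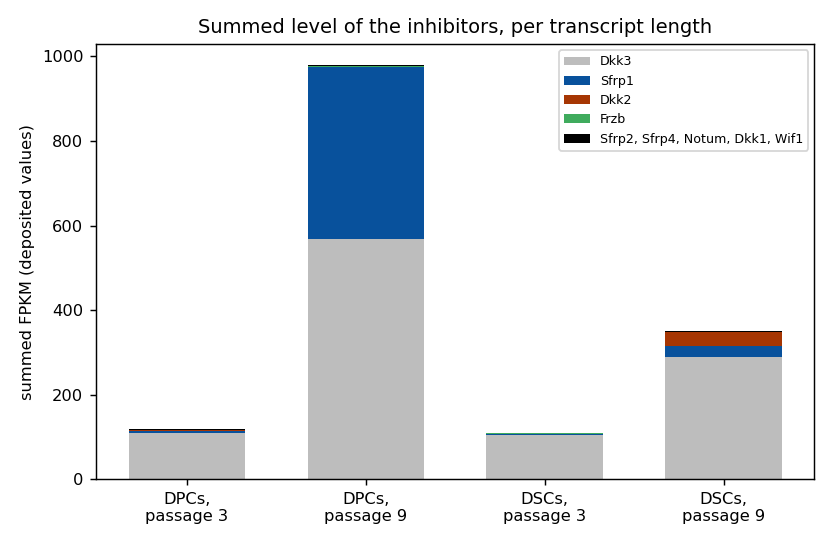
Summed deposited FPKM of the 9 inhibitors in each library (bars), divided by gene (colours), with 1 library per bar. Late DPCs reached 981, shared between Dkk3 and Sfrp1, and late DSCs reached 350.2, with visible parts from Dkk2 and Sfrp1.

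Other genes of the pathway were read from fixed lists. Of 12 further Wnt antagonists, 6 passed the minimum count. In DPCs 1 was called higher with passage and 1 lower, where 5.58% and 4.36% of all tested genes were. In DSCs 0 were called, where 3.82% were in either direction. The list medians were -0.04 in DPCs and 0.52 in DSCs beside 0.03 and 0.00 for all tested genes. Sostdc1, which binds Lrp5 and Lrp6 and also blocks BMPs, had 61 counts in early DPCs, 0 in late DPCs, 0 in early DSCs and 2 in late DSCs, at least 19.8-fold lower with passage in DPCs, or at least 9.91-fold if both mates were counted. Shisa2, which holds Frizzled inside the cell, had 0 and 21 counts in DPCs, at least 7.18-fold higher, and 15 and 37 in DSCs. If both mates were counted, this bound falls to 3.59-fold, under the threshold. Apcdd1, a membrane-bound inhibitor, was called higher in DPCs than in DSCs at passage 3, with 1267 against 250 counts, and had log2 changes of -0.47 and 1.02 with passage. Trabd2b, a protease that cleaves Wnts, changed by -0.26 in DPCs and -1.55 in DSCs. Igfbp4, an IGF-binding protein with Wnt-inhibiting activity, changed by 0.19 and -0.12 on at least 11556 counts, and Draxin by 0.54 and 0.15 on at most 31 counts. Cer1, Dkk4, Dkkl1 and Sfrp5 had 0 counts in all libraries.

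On the receptor side, 2 of 19 tested receptor genes were called higher with passage in DPCs (Fzd6 and Lrp4) and 1 in DSCs (Lgr5), with 0 lower in either. Of all tested genes 5.58% were called higher and 4.36% lower in DPCs, and 2.67% higher and 1.16% lower in DSCs. These shares also stand beside the ligands below. The receptor medians were 0.71 in DPCs and 0.22 in DSCs. The targets of Dickkopf proteins stayed under the threshold: Lrp5 changed by 0.86 and 0.23, Lrp6 by 0.71 and 0.48, and the Dickkopf co-receptor Kremen1 by 0.71 and 0.36. Kremen2 had 0 counts. Wls and Porcn, which export and lipidate Wnts, changed by -0.35 and 0.21, and by -0.67 and -0.23. Of 8 tested Wnt ligands, Wnt2b was called higher and Wnt4 lower in DPCs, and Wnt7b, with 0 and 47 counts, was at least 13.0-fold higher in DSCs, or at least 6.52-fold if both mates were counted. Of 5 tested glypicans, which hold Wnts at the cell surface, Gpc3 was called higher in both cell types (4.34 and 2.98), where 1.27% of all tested genes were.

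Among 11 tested beta-catenin targets and feedback genes, 1 was called higher in DPCs (Axin2) and 3 lower (Lef1, Tcf7 and Nkd1), with 0 called in DSCs. Of all tested genes 5.58% were called higher and 4.36% lower in DPCs, and 3.82% in either direction in DSCs. Axin2, a feedback inhibitor, had 4 and 218 counts in DPCs and 34 and 74 in DSCs. Lef1, which carries the beta-catenin signal to DNA, had 508 and 2 counts in DPCs, 248-fold lower (counting interval 68.2 to 2051), and 101 and 55 in DSCs. Thus Axin2 and Lef1 lay in opposite directions in the same pair of DPC libraries in which Sfrp1 and Dkk3 rose. The list medians were -0.87 in DPCs and -0.32 in DSCs.

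**Figure D4:**
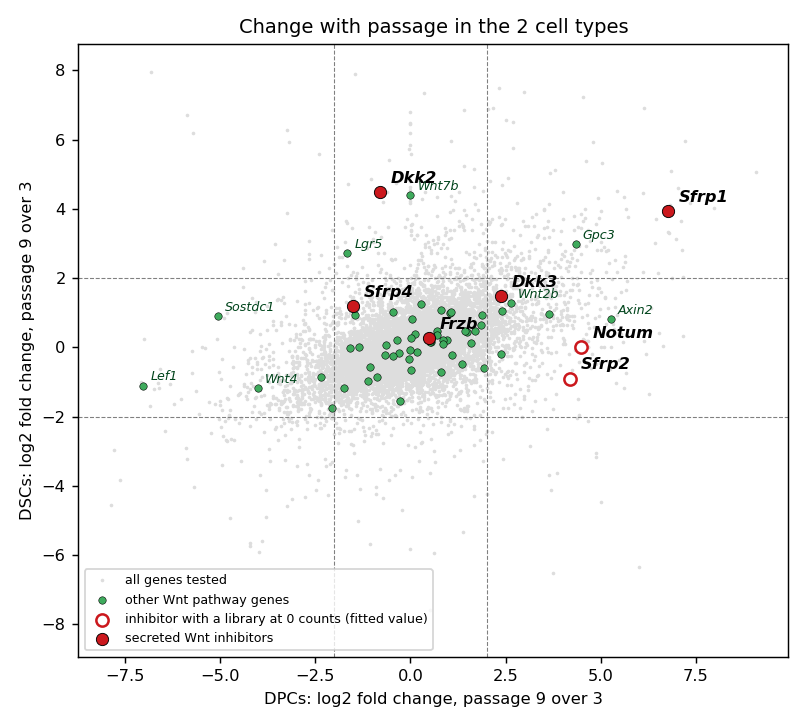
Log2 fold change with passage in DPCs (x axis) against DSCs (y axis) for the tested inhibitors (red), other genes of the Wnt lists (green) and all 16734 tested genes (grey); dashed lines mark 4-fold. Sfrp1 lies at the upper right (6.76 and 3.95), Dkk2 at the upper left (-0.80 and 4.48), and open symbols (Notum and Sfrp2) are fitted values with a library at 0 counts.

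The genes whose pattern over the 4 libraries was nearest to that of Sfrp1, by root mean square difference of centred log2 CPM, were Prss35 (0.33), Gria1 (0.41) and Dchs1 (0.50). These were the only 3 of 12191 genes with a mean of at least 100 counts that lay within 0.5. Prss35 had 410 and 55190 counts in DPCs and 177 and 2702 in DSCs, while Gria1 had 2 and 472, and 0 and 18. Sfrp4, the inhibitor with the lowest change with passage, had 97 such neighbours, led by C1qtnf2 (0.15), Entpd1 (0.17) and Cnr1 (0.17).

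Markers of other cells were read beside these results. In a bulk library, fewer cells of a type and less RNA per cell cannot be told apart. Of 10 keratinocyte markers, 6 had 0 counts in every library (Krt1, Krt5, Krt14, Krt15, Cdh1 and Dsg3), and the summed level of the list ran from 2.34 to 6.44 CPM in DPCs and from 4.01 to 52.7 in DSCs with passage, carried by Dsp. Of 8 Schwann cell markers, 4 were called lower in both cell types (Ngfr, Cdh19, Sox10 and Erbb3), where 0.508% of all tested genes were, and the summed level went from 15.1 to 6.35 CPM in DPCs and from 37.4 to 10.9 in DSCs. The immune list went from 28.9 to 10.5 CPM in DPCs and from 41.0 to 17.8 in DSCs. The endothelial list went from 2.53 to 0.11 CPM in DPCs and from 5.64 to 1.08 in DSCs. Of its 3 tested members, 2 (Cdh5 and Tek) were called lower in both cell types, on at most 114 counts in a library. Melanocyte markers reached 3.98 CPM at most, with Tyr, Mlana, Dct and Tyrp1 at 0. Of the skeletal muscle list, Ckm, Pax7 and Myod1 were at 0, and its sum of 1.78 to 48.8 CPM was mostly Acta1 except in late DPCs, where Ttn had more counts. The fibroblast list went from 18827 to 7464 CPM in DPCs and from 27648 to 24644 in DSCs. Its 9 members did not move alike. Col1a1, Col3a1 and Lum were called lower in DPCs, while in DSCs Dcn (3292 and 89544 counts) and Lum (0 and 109) were called higher. The call of Lum in DPCs rests on 8 and 0 counts, so on a fitted value near the limit of 3 counts. The list medians were -1.31 in DPCs and 0.23 in DSCs. The part of these shifts in the values of the inhibitors was not tested.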

How the data were processed

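RNA from DPCs and DSCs at passage 3 and passage 9 was sequenced as 1 library per group. The authors deposited raw counts per gene, which are whole numbers with no normalization, and FPKM values, which the authors normalized for transcript length and depth. The submitters' processing notes name Bowtie 0.12.2 and builds mm8 and mm9 without a role, whereas 94.2% of the 51633 IDs found in GENCODE M21 had the same position on GRCm38. The counting program and strand use are not given in the sources used here. The study's methods and the labels name different library kits. Even counts were in excess (in early DPCs, 2 counts in 1339 genes and 3 in 583), a pattern that would arise if both mates of a pair were counted.

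Counts were scaled by TMM in edgeR 4.0.16 (R 4.3.3), and log2 CPM was taken with a prior count of 2. Genes with a mean count of at least 10 were compared, and 4-fold was called. Exact Clopper-Pearson intervals (95%) were taken on the share of the reads of 2 libraries. Folds are ratios of scaled CPM without the prior count, so at low counts they differ from the log2 values. A library at 0 was set to 3 counts, which gives a bound that leaves out counting error in the other library. The calculation was tested on simulated counts. DESeq2 1.42.0 size factors, other scalings, prior counts, minimum counts, halved counts and FPKM were alternatives. The members, gene lists and the rule for named genes were chosen with earlier results of these data known. That rule took the 9 members, the further antagonists with a mean count of at least 10, partners and read-outs (Lrp5, Lrp6, Kremen1, Kremen2, Wls, Porcn, Axin2 and Lef1), up to 3 genes per list called alike in both cell types, and the nearest profiles of Sfrp1 and of the member with the largest fall. Other genes called in a list were named after their values were seen.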

Additional observations from a re-analysis of the deposited data

Results flagged for a closer look

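Of the tested inhibitors, 3 had log2 changes with passage of opposite sign in DPCs and DSCs, and with 1 library per group this difference was not tested. For Dkk2 the change in DPCs minus that in DSCs was -5.28, from -0.80 and 4.48, and 0.502% of tested genes differed by as much or more. The counting intervals of Dkk2 lay on opposite sides of 0, also with halved counts. For Sfrp4 the difference was -2.70, from -1.51 and 1.19, on 6 to 66 counts, and 4.04% of tested genes differed by as much or more. For Sfrp2 it was 5.10, which includes a fitted value for early DPCs at 0 counts, and its interval in DSCs included 0. The share of tested genes with as large a difference was 0.586% there.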

How the results depend on the processing

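No analysis paired by replicate was possible, because each group was 1 library and the labels give nothing that links libraries by mouse or culture. A model with cell type and passage as additive terms was not run. Its spread would come from how far the passage changes of DPCs and DSCs differ and not from replicates. The calls of Sfrp1 in both cell types (6.42 to 6.79 in DPCs, 3.34 to 3.96 in DSCs), Dkk2 in DSCs (3.78 to 4.49) and Dkk3 in DPCs (2.33 to 2.40) held under all 10 alternatives. Of the values for single inhibitors, 285 were counted as within the counting interval and 50 as moved, 25 of these with FPKM and a pseudocount of 1. No called value changed sign. For differences between the 2 passage changes the ends of the 2 intervals were combined. Values that use Notum in DSCs, which has no interval, were judged by the size of the move. The number of inhibitors called moved by over 1.5 times as follows. With a minimum mean count of 100, which removes Sfrp2, Sfrp4 and Notum, it was 2 in DPCs, 1 between cell types at passage 3 and 3 at passage 9. With FPKM and a pseudocount of 1 it was 2, 0 and 2 in the same comparisons. A 2-fold threshold gave 4 in DSCs and 4 at passage 3. At passage 3 only Frzb, that is 1 inhibitor, was called with a prior count of 10, with halved counts or with FPKM and a pseudocount of 0.1. Smaller moves were a loss of Sfrp2 at passage 9 with a prior count of 10 or with FPKM and a pseudocount of 0.1, which left 5 inhibitors, a gain of Notum at passage 3 with a prior count of 0.5, which gave 3, and a gain of Sfrp4 as lower in DPCs at a 2-fold threshold, which gave 5. Over all genes, in DPCs, DSCs, passage 3 and passage 9, the main counts of 1663, 640, 719 and 1074 became 2622, 1254, 1319 and 1805 without a minimum count. A minimum of 100 gave 758, 210, 301 and 458, since fewer genes were tested. A prior count of 10 gave 339, 400 and 712 in DSCs and the 2 cell type comparisons. Wif1 and Dkk1, at 0 counts, allow no comparison, and Sfrp2, Sfrp4 and Notum rest on at most 32, 66 and 127 counts in a library.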

Other observations

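The R-spondins, secreted proteins that strengthen Wnt signalling and so oppose the inhibitors, included Rspo2 and Rspo4, which lay higher in DSCs at both passages. Rspo4 was called at both passages and Rspo2 only at passage 9. None of the 4 R-spondins was called with passage in either cell type. Rspo2 had 442 and 519 counts in early and late DPCs against 1671 and 4813 in DSCs, log2 differences of -1.87 at passage 3 and -2.86 at passage 9. Rspo4 had 12 counts in each DPC library against 62 and 134 in DSCs, differences of -2.16 and -2.96. Rspo1 and Rspo3 did not share this order. Rspo1 had 57 and 219 counts in DPCs and 101 and 80 in DSCs, and Rspo3 had 70 and 196 in DPCs and 60 and 99 in DSCs. Among Wnt ligands, Wnt5a had the highest FPKM in every library, from 23.2 in early DSCs to 95.1 in late DPCs. These are values of 1 library each and carry no test.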
